A study of Rattus norvegicus with 18 samples.

Results

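The genes described here are the enzymes, transporters and receptors by which a tissue takes up, oxidises, conjugates and expels foreign chemicals. The list held 39 rat genes in 4 classes: 18 phase I enzymes, 14 phase II enzymes, 4 efflux pumps and 3 receptors. Each gene was read on its brightest probe set (by the mean of the 18 arrays) among those that the array annotation gives to a single gene symbol. This left 37 of the 39 genes, out of 14217 genes so measured on the array: 17 of phase I, 13 of phase II, 4 of efflux and 3 receptors. Adh1 is listed by the annotation under the symbol Adh1c, and Gsta2 only on a probe set shared with Gsta5, so both fell outside the rule.

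Phase I enzymes, such as the cytochromes P450, add or expose a reactive group on a lipophilic compound. Phase II enzymes join that group to glutathione, sulfate, glucuronic acid or a methyl group, and ATP-driven pumps then move the product out of the cell. The receptors Ahr, Nr1i2 and Nr1i3 bind foreign ligands and switch many of these genes on. In the colon the system stands mainly in the surface epithelium, between the gut contents and the blood.

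The study followed colitis in rats after a single enema of TNBS, a hapten that raises an immune reaction in the colon wall when given with ethanol, which breaks the mucosal barrier. Colitis rats received 10 mg TNBS in 50% ethanol and were sampled after 2, 5, 7 or 14 days, with 3 rats at each time. The 6 control rats were healthy and received saline, so no group received ethanol without TNBS. The colitis rats were selected on inflammatory markers (myeloperoxidase activity, body weight loss and colon weight for its length), and no source used here gives their strain, sex or age. RNA came from the full thickness of the colon, and 1 array was deposited for each rat. In bulk tissue, fewer cells of a type and less RNA per cell cannot be told apart.

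All values are log2 signals, and a difference of 1 is a change of 2-fold. As deposited, the median signal was 4.27 to 4.30 on the control arrays and 5.02 to 5.07 on the TNBS arrays, a difference of 0.76 that follows treatment exactly. The labels also name different extraction protocols for controls and TNBS rats, so treatment, processing and extraction cannot be told apart. The arrays were therefore quantile-normalized together. The median difference from control over all probe sets was 0.54 to 0.59 on the deposited scale, depending on the day, and -0.04 to -0.01 after quantile normalization. A gene is called where limma's adjusted p was under 0.05 after quantile normalization. "Rose" and "fell" are kept for genes called in the same direction on both scales, and the others are said to be lower after quantile normalization only. Against control, every higher call of any probe set also held as deposited, where the TNBS arrays lie higher. The second scale therefore limits only the lower calls and adds nothing to the higher ones. The replicate 1 arrays of days 2 and 5 were closer to the day 14 arrays than to their own groups. Their mean correlations over probe sets were 0.987 and 0.984 with day 14, against 0.970 and 0.980 with their own groups, and day 2 replicate 3 had 0.970 with both. Markers of colon epithelium (21 genes) and smooth muscle (10 genes) were present, and none lay below the median of all probe sets in any group.

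Some genes of this system rose and others fell, and rats of the same day often differed. Por, Aldh3a2 and Gstt2 rose at day 2 and were again higher than control at day 14, each on the probe set used, although Aldh3a2 was not called at day 7. Cyp4b1 and Cyp4f1 fell at day 5 and Akr1c15 at day 7. The pumps Abcb1a and Abcg2 lay far below the controls in some rats of days 2, 5 and 7 and in or just below the control range in the others. Abcb1a was not called on any day, and Abcg2 was called lower on days 2 and 5 after quantile normalization only. Tpmt rose and Mgst1 fell between days 7 and 14.

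Counts over the 37 genes stayed near those of the whole array. On day 2, 3 genes were higher (8.11%, against 9.13% of all probe sets) and 2 were lower (5.41%, against 9.87%). On day 5, 4 were higher (10.8%, against 12.1%) and 7 lower (18.9%, against 14.5%). On day 7 the counts were again 4 higher (10.8%, against 12.4%) and 7 lower (18.9%, against 15.9%). On day 14, 3 were higher (8.11%, against 5.61%) and 1 lower (2.70%, against 6.09%). Every higher call also held on the deposited scale, where the TNBS arrays lie higher, and so did every higher call among all probe sets. The shares of all probe sets called higher on both scales were thus again 9.13%, 12.1%, 12.4% and 5.61% in the order of the days. For higher calls the deposited scale is therefore no further check. Lower calls held on both scales for 0, 2, 1 and 0 of the genes, against 0.522%, 1.09%, 1.07% and 0.135% of all probe sets. By limma's F test over the 4 differences from control, 8 of the 37 were called, against 27.8% of all probe sets. Leaving out day 2 replicate 1 moved the lower count of day 2 from 2 to 6, and leaving out day 5 replicate 1 moved that of day 5 from 7 to 12. Without day 5 replicate 2 or 3 the lower count of day 5 was 2 or 1, and without day 7 replicate 1 that of day 7 was 2. No share of all probe sets was taken with an array left out. Whether these shifts are particular to the 37 genes or run over the whole array was therefore not tested.

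**Figure D1:**
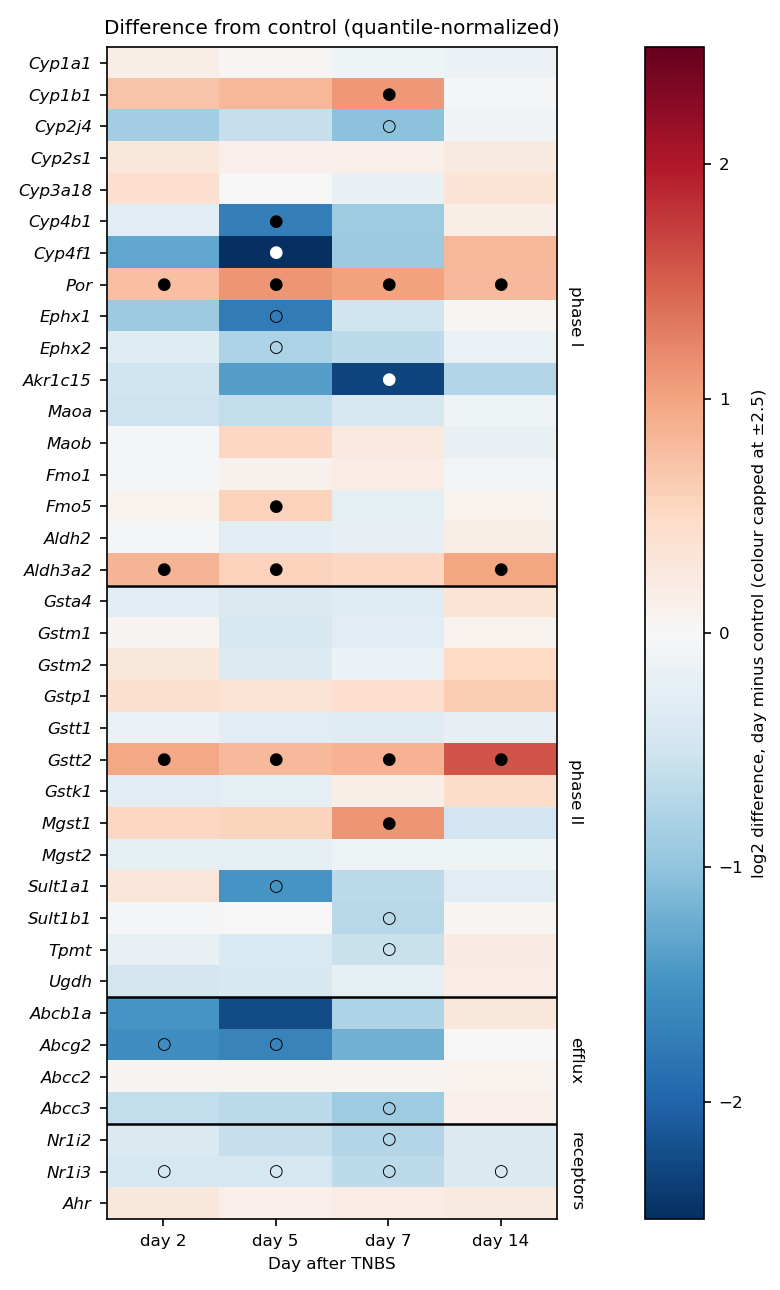
Log2 difference from the control mean of each gene (rows, grouped by class) on days 2, 5, 7 and 14 (columns) after quantile normalization, with 3 rats a day against 6 controls; colour is capped at 2.5 either way, filled dots mark genes called on both scales and open dots genes called after quantile normalization only. The rows of Por and Gstt2 carry a filled dot on every day, and that of Nr1i3 an open dot on every day.

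In phase I, the gene that rose at every time was Por, the reductase that passes electrons from NADPH to every microsomal cytochrome P450. Por read 7.33 to 7.78 on the 6 control arrays (median 7.51), then 7.98, 8.43 and 8.47 at day 2, 8.32, 8.80 and 8.79 at day 5, 8.66, 8.30 and 8.63 at day 7, and 8.40, 8.33 and 8.29 at day 14. Every TNBS array lay above every control array. The difference from control was 0.76 ± 0.14 (SE) at day 2 (limma, adjusted p = 0.00176), 1.10 ± 0.14 at day 5 (adjusted p = 7.05e-05), 1.00 ± 0.14 at day 7 (adjusted p = 0.000126) and 0.81 ± 0.14 at day 14 (adjusted p = 0.00167). The day 5 rise was 2.15-fold. A second, dimmer Por probe set gave 0.08, 0.31, 0.43 and 0.32 on the same days (SE 0.23), and none of these was called. The mean of both sets was 0.42 higher at day 2, which was not called (adjusted p = 0.102).

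Aldh3a2, the fatty aldehyde dehydrogenase, read 8.12 to 8.69 on the controls (median 8.42), 9.58, 8.95 and 9.24 at day 2, 9.27, 8.67 and 9.06 at day 5, 8.32, 9.32 and 9.16 at day 7, and 9.42, 9.45 and 9.35 at day 14. Days 2 and 14 did not overlap the controls, whereas day 5 replicate 2 and day 7 replicate 1 lay within their range. Aldh3a2 rose at day 2 by 0.84 ± 0.20 (limma, adjusted p = 0.0097), at day 5 by 0.58 ± 0.20 (adjusted p = 0.0446) and at day 14 by 0.99 ± 0.20 (adjusted p = 0.00525), and the day 7 difference of 0.52 ± 0.20 was not called (adjusted p = 0.0692). The day 5 call was lost without control replicate 1, 2, 4 or 5 or without day 5 replicate 1 or 3, with an adjusted p of up to 0.184.

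**Figure D2:**
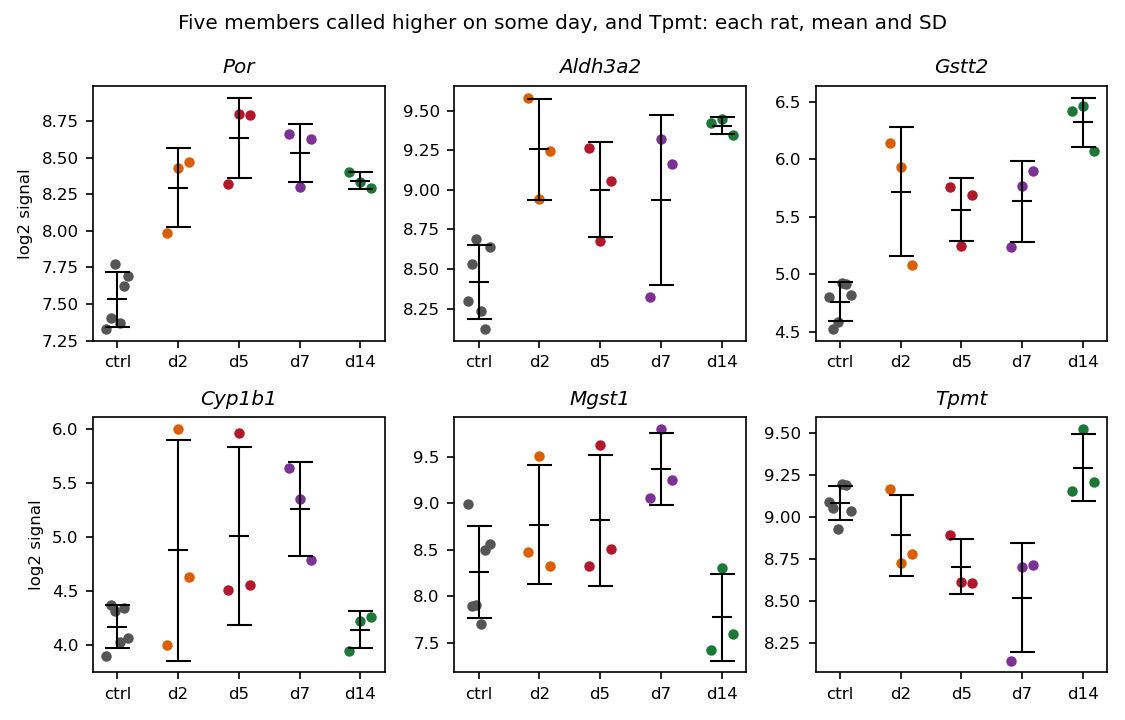
Quantile-normalized log2 signal (vertical axis) of Por, Aldh3a2, Gstt2, Cyp1b1, Mgst1 and Tpmt in each rat (points) by group (horizontal axis), with bars for the group mean and SD. For Por all TNBS points lie above all control points, Cyp1b1 and Mgst1 are high at day 7 and back in the control range or below it at day 14, and Tpmt is lowest at day 7.

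Fmo5, a flavin-containing monooxygenase, rose on a single day. It read 6.18 to 7.06 on the controls (median 6.38), 6.68, 6.71 and 6.42 at day 2, 6.92, 7.17 and 7.22 at day 5, 6.00, 6.57 and 6.33 at day 7, and 6.45, 6.77 and 6.62 at day 14. The day 5 difference was 0.58 ± 0.18 (limma, adjusted p = 0.0281), although day 5 replicate 1 lay below the highest control. The call was lost without control replicate 1, 2 or 3 or day 5 replicate 2 or 3, with an adjusted p of up to 0.105.

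Cyp1b1, a monooxygenase that Ahr ligands induce, was dim, with a mean over the 18 arrays below the median of all probe sets. It read 3.90 to 4.37 on the controls (median 4.19), 4.00, 6.00 and 4.63 at day 2, 4.51, 5.96 and 4.56 at day 5, 5.64, 5.35 and 4.79 at day 7, and 3.95, 4.22 and 4.26 at day 14. All arrays of days 5 and 7 lay above the controls, and day 14 was back among them. Cyp1b1 rose at day 7 by 1.09 ± 0.36 (limma, adjusted p = 0.0337). The call was lost without control replicate 1, 4 or 6 or day 7 replicate 1 or 2 (adjusted p up to 0.148). Cyp1a1, the classic Ahr target, lay below the median of all probe sets on every array and differed from control by 0.16, 0.03, -0.10 and -0.15 on the 4 days, with no call.

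The genes that fell are led by Cyp4f1, a hydroxylase of fatty acids and leukotrienes. It read 7.83 to 10.06 on the controls (median 9.41), 9.36, 6.91 and 7.51 at day 2, 9.0, 4.83 and 3.92 at day 5, 5.52, 9.84 and 9.59 at day 7, and 10.24, 10.26 and 9.62 at day 14. Within days 2, 5 and 7 some rats lay in the control range and others far under it. The SD at day 5 was 2.71, the widest of any of the 37 genes on that day. Cyp4f1 fell at day 5 by 3.30 on the log2 scale (SE 1.03, limma adjusted p = 0.0266), or 9.84-fold, and the call was lost without day 5 replicate 2 or 3 (adjusted p up to 0.166). The differences on days 2, 7 and 14 were -1.29, -0.90 and 0.83, and none was called.

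Cyp4b1, a fatty acid and xenobiotic hydroxylase of the same family, read 7.10 to 8.38 on the controls (median 7.33), 7.06, 7.83 and 6.83 at day 2, 6.55, 5.76 and 5.06 at day 5, 5.21, 7.52 and 7.09 at day 7, and 7.85, 8.03 and 7.12 at day 14. All day 5 arrays lay below all controls. Cyp4b1 fell by 1.71 at day 5 (SE 0.45, limma adjusted p = 0.0104), a call lost without day 5 replicate 3 (adjusted p = 0.0715). On day 7 replicate 1 alone was low, and the difference of -0.89 ± 0.45 was not called.

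Akr1c15, an aldo-keto reductase, was lowest at day 7. It read 8.15 to 9.72 on the controls (median 9.03), 9.20, 8.45 and 7.80 at day 2, 9.03, 5.50 and 8.24 at day 5, 7.46, 5.40 and 7.11 at day 7, and 7.80, 7.55 and 9.37 at day 14. All day 7 arrays lay below all controls, and so did 2 of the 3 day 14 arrays. Akr1c15 fell by 2.31 at day 7 (SE 0.65, limma adjusted p = 0.0150), or 4.98-fold, a call lost without day 7 replicate 2 (adjusted p = 0.09998).

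**Figure D3:**
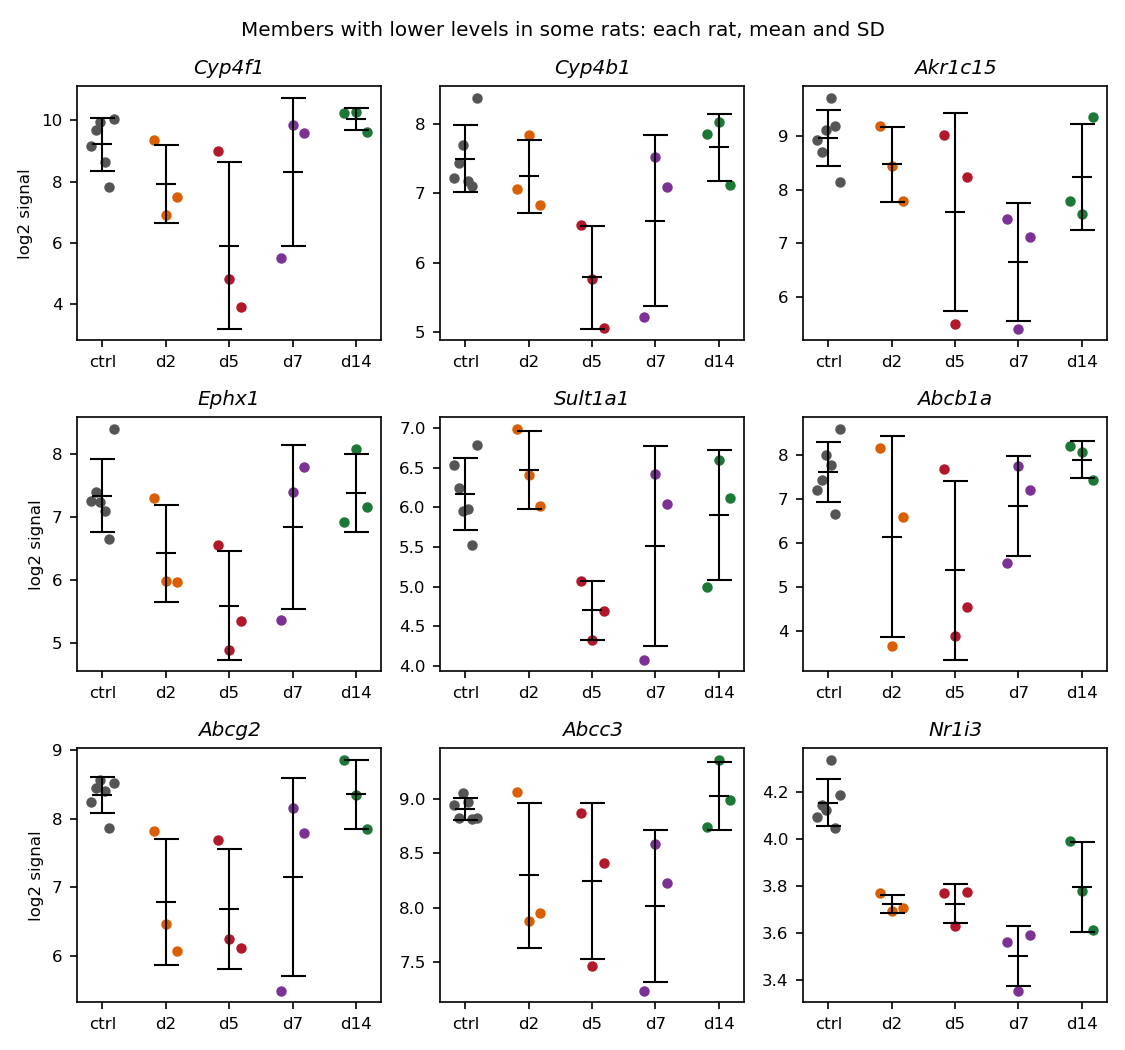
Quantile-normalized log2 signal (vertical axis) of Cyp4f1, Cyp4b1, Akr1c15, Ephx1, Sult1a1, Abcb1a, Abcg2, Abcc3 and Nr1i3 in each rat (points) by group (horizontal axis), with bars for the group mean and SD. For Cyp4f1, Abcb1a and Abcg2 the rats of one day spread widely on days 2, 5 and 7, and the day 14 points overlap the controls.

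Cyp2j4, an epoxygenase of arachidonic acid, was lower at day 7 after quantile normalization only. It read 7.56 to 8.23 on the controls (median 8.09), 7.62, 6.98 and 6.80 at day 2, 8.07, 6.45 and 7.77 at day 5, 6.67, 6.60 and 7.66 at day 7, and 8.13, 7.78 and 7.84 at day 14. Its day 7 difference was -1.03 ± 0.31 (limma, adjusted p = 0.0202) against -0.38 on the deposited scale, and the call was lost without day 7 replicate 1 or 2 (adjusted p up to 0.1002). The epoxide hydrolases, which open the epoxides that P450 enzymes make, were lower at day 5 after quantile normalization only. Ephx1, the microsomal enzyme, read 6.66 to 8.41 on the controls (median 7.25), 7.31, 6.00 and 5.98 at day 2, 6.56, 4.89 and 5.35 at day 5, 5.37, 7.39 and 7.80 at day 7, and 6.92, 8.09 and 7.16 at day 14. Its day 5 arrays lay below every control, and the difference was -1.74 ± 0.52 (limma, adjusted p = 0.0211), lost without day 5 replicate 2 or 3 (adjusted p up to 0.123). Ephx2, the soluble enzyme, differed by -0.80 ± 0.27 at day 5 (adjusted p = 0.0389), a call that 7 of the 9 single omissions removed: control replicates 1, 2, 3, 4 and 6 and day 5 replicates 2 and 3 (adjusted p up to 0.211).

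The other 7 phase I genes, Cyp1a1 among them, had no call against control. Maoa, which oxidises serotonin and other amines, differed from control by -0.52, -0.62, -0.39 and -0.10 on the 4 days. Its day 5 arrays lay below every control, with an adjusted p of 0.0635 in limma. Maob, the related amine oxidase, differed by -0.04, 0.53, 0.24 and -0.19, and Aldh2, the mitochondrial aldehyde dehydrogenase, by -0.03, -0.29, -0.20 and 0.15. Cyp2s1, Cyp3a18 and Fmo1 lay below the median of all probe sets on every array, so their differences, from -0.19 to 0.42, were taken near the floor of the array.

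Promoter sequence is shown for 5 genes picked by hand, not by a rule: 3 phase I genes that rose, 1 that fell, and the pump Abcg2. The sequences are from RefSeq (assembly GRCr8), 250 bases before to 50 bases after the annotated start, 5′ to 3′ on the gene's strand. Capitals mark GCGTG, the core of the xenobiotic response element, or its reverse complement, and TGACNNNGC, the core of the antioxidant response element, or its reverse complement. No matches overlapped in the 5 windows.
Por (chr12:26635760-26636059, minus strand): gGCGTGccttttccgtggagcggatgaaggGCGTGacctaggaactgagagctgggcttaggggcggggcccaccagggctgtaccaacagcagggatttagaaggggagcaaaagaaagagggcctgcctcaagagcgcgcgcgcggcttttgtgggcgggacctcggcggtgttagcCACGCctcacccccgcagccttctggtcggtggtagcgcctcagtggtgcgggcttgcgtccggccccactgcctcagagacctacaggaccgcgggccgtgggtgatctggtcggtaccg
Aldh3a2 (chr10:46448286-46448585, minus strand): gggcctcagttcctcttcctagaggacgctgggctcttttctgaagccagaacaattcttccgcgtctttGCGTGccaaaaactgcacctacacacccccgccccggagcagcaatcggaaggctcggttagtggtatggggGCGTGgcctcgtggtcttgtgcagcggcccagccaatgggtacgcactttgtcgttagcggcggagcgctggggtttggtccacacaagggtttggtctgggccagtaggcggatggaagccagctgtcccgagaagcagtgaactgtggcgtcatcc
Cyp1b1 (chr6:21094315-21094614, plus strand): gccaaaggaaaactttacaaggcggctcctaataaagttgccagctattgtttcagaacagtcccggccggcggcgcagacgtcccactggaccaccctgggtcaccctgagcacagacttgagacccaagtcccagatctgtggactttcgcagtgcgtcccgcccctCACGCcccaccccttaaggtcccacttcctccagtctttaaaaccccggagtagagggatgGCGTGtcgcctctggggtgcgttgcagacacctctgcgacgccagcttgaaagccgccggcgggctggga
Akr1c15 (chr17:71117908-71118207, minus strand): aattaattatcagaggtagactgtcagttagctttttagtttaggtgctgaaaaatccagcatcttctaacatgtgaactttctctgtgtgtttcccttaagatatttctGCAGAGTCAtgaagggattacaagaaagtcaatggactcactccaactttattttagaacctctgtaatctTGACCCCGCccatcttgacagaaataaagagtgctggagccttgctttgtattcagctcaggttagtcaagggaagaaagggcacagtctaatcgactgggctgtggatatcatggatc
Abcg2 (chr4:89075224-89075523, plus strand): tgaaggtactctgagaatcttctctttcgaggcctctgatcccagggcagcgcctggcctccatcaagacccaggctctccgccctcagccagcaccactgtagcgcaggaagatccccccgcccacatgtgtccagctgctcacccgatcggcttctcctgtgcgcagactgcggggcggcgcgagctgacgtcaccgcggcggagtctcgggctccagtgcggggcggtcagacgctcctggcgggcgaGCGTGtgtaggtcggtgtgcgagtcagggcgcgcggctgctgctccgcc
On either strand, GCGTG was present in 12 of the 31 listed genes with a promoter in the table (38.7%), against 31.1% of 27457 promoters of the same length. TGACNNNGC was present in 8 of 31 (25.8%), against 12.2%. The Por window held 3 GCGTG cores, those of Aldh3a2 and Cyp1b1 held 2 each, that of Abcg2 held 1, and the Akr1c15 window held 2 TGACNNNGC cores. Among windows not shown, Fmo5, which rose, and Cyp4f1, which fell, held 1 GCGTG core each. Tpmt, lower at day 7 after quantile normalization only, and Gsta4, never called, held 3 each. These matches describe the letters only, and a link between cores and direction was not tested.

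In phase II, Gstt2, a theta-class glutathione transferase, rose on every day. It read 4.52 to 4.92 on the controls (median 4.81), 6.14, 5.93 and 5.08 at day 2, 5.76, 5.25 and 5.69 at day 5, 5.23, 5.77 and 5.90 at day 7, and 6.42, 6.47 and 6.08 at day 14. No TNBS array overlapped the controls. The differences were 0.96 at day 2 (limma, adjusted p = 0.00466), 0.80 at day 5 (adjusted p = 0.0094), 0.88 at day 7 (adjusted p = 0.00492) and 1.56 at day 14 (adjusted p = 0.000201), each with an SE of 0.21. The day 14 rise was 2.95-fold. A second Gstt2 probe set went the other way after quantile normalization, by -0.46, -0.49, -0.58 and -0.46 (SE 0.12, adjusted p = 0.0169, 0.00833, 0.00232 and 0.0233). On the deposited scale that set was higher on days 2, 5 and 14, by 0.36, 0.31 and 0.34. The rise is therefore that of 1 probe set, and whether it stands for the whole transcript was not tested.

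Mgst1, a microsomal glutathione transferase, had its highest mean at day 7. It read 7.71 to 8.99 on the controls (median 8.20), 8.48, 9.51 and 8.33 at day 2, 8.32, 9.63 and 8.51 at day 5, 9.06, 9.80 and 9.25 at day 7, and 7.42, 8.31 and 7.60 at day 14. The day 7 arrays lay above every control. Mgst1 rose by 1.11 ± 0.35 at day 7 (limma, adjusted p = 0.0263), a call lost without control replicate 4 or day 7 replicate 2 or 3 (adjusted p up to 0.123). The day 2 and day 5 differences of 0.51 and 0.56 were not called.

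Tpmt, the methyltransferase that inactivates thiopurine drugs, read 8.93 to 9.20 on the controls (median 9.07), 9.16, 8.73 and 8.78 at day 2, 8.89, 8.61 and 8.61 at day 5, 8.14, 8.70 and 8.71 at day 7, and 9.15, 9.52 and 9.20 at day 14. The arrays of days 5 and 7 lay below every control. Tpmt was lower at day 7 after quantile normalization only, by -0.56 ± 0.14 (limma, adjusted p = 0.00602), and the call was lost without day 7 replicate 1 (adjusted p = 0.0564). The deposited difference was -0.09.

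The sulfotransferases were lower on different days, both after quantile normalization only. Sult1b1, the brighter enzyme, read 9.92 to 10.90 on the controls (median 10.34), 10.74, 9.99 and 10.31 at day 2, 10.13, 10.74 and 10.28 at day 5, 9.59, 9.86 and 9.60 at day 7, and 10.48, 10.31 and 10.51 at day 14. Its day 7 arrays lay below every control, by -0.70 ± 0.20 in the means (limma, adjusted p = 0.0151), and the call was lost without day 7 replicate 1 or 3 (adjusted p up to 0.0637). Sult1a1, the phenol sulfotransferase, read 5.53 to 6.78 on the controls (median 6.11), 6.99, 6.41 and 6.02 at day 2, 5.07, 4.33 and 4.70 at day 5, 4.08, 6.41 and 6.05 at day 7, and 5.00, 6.60 and 6.12 at day 14. Its day 5 arrays lay below every control. The difference was -1.47 ± 0.45 (adjusted p = 0.0235), lost without day 5 replicate 2 or 3 (adjusted p up to 0.109), and at day 7 replicate 1 alone was low.

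The other 8 phase II genes were not called on any day. Gstp1, the pi-class glutathione transferase, differed from control by 0.40, 0.34, 0.42 and 0.63, and its day 14 arrays lay above every control (limma, adjusted p = 0.0856). Gstm1 differed by 0.07, -0.39, -0.27 and 0.08, Gstm2 by 0.29, -0.35, -0.15 and 0.49, and Gsta4 by -0.27, -0.36, -0.32 and 0.33. These 3 enzymes had a negative mean difference on days 5 and 7 and a positive one at day 14. Gstt1 differed by -0.17, -0.26, -0.31 and -0.21, Gstk1 by -0.26, -0.24, 0.18 and 0.45, and Mgst2 by -0.22, -0.24, -0.13 and -0.11. Ugdh, which makes the UDP-glucuronic acid that glucuronidation uses, differed by -0.46, -0.40, -0.24 and 0.18.

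Of the 4 classes, the efflux pumps had the lowest median difference from control on days 2, 5 and 7. Abcg2, the breast cancer resistance protein, exports drugs and urate from the apical membrane. It read 7.87 to 8.57 on the controls (median 8.43), 7.83, 6.46 and 6.07 at day 2, 7.69, 6.24 and 6.12 at day 5, 5.48, 8.16 and 7.79 at day 7, and 8.87, 8.35 and 7.86 at day 14. On days 2 and 5 replicate 1 lay just below the controls and the other rats far below, and at day 7 replicate 1 alone was far below. Abcg2 was lower after quantile normalization only, by -1.56 ± 0.51 at day 2 (limma, adjusted p = 0.0435) and -1.67 ± 0.51 at day 5 (adjusted p = 0.0248), against -0.96 and -1.04 as deposited. The day 7 difference of -1.20 was not called (adjusted p = 0.0923), and that of day 14 was 0.01. The day 2 call was lost without control replicate 1, 2, 3, 4 or 6 or day 2 replicate 2 or 3 (adjusted p up to 0.214), and without day 2 replicate 1 the difference was -2.08. The day 5 call was lost without day 5 replicate 2 or 3 (adjusted p up to 0.116).

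Abcb1a, the P-glycoprotein of the apical membrane, was not called on any day. It read 6.66 to 8.59 on the controls (median 7.60), 8.16, 3.67 and 6.58 at day 2, 7.68, 3.90 and 4.54 at day 5, 5.56, 7.74 and 7.20 at day 7, and 8.18, 8.06 and 7.42 at day 14. Its signal in day 2 replicate 2 and in day 5 replicates 2 and 3 lay under the median of all values on the array (4.79), while replicate 1 of both days read within the control range. The mean differences were -1.47, -2.23, -0.77 and 0.28 with an SE of 0.87, and limma's adjusted p at day 5 was 0.068. A second Abcb1a probe set gave -1.50, -1.61, -0.43 and 0.27, also without a call.

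Abcc3, a basolateral pump for conjugates and bile acids, read 8.81 to 9.05 on the controls (median 8.88), 9.06, 7.87 and 7.95 at day 2, 8.87, 7.47 and 8.41 at day 5, 7.24, 8.58 and 8.23 at day 7, and 8.74, 9.36 and 8.99 at day 14. It was lower at day 7 after quantile normalization only, by -0.89 ± 0.32 (limma, adjusted p = 0.0471). That call was lost without any of the 6 controls or without day 7 replicate 1 or 3 (adjusted p up to 0.303). Abcc2, the apical conjugate pump, lay below the median of all probe sets on every array and differed from control by 0.06 to 0.08 on the 4 days.

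Among the receptors, Nr1i3 (the constitutive androstane receptor) gave calls whose direction depended on the scaling. It read 4.05 to 4.34 on the controls (median 4.13), 3.77, 3.69 and 3.70 at day 2, 3.77, 3.63 and 3.77 at day 5, 3.56, 3.35 and 3.59 at day 7, and 3.99, 3.78 and 3.61 at day 14, all under the median of all probe sets. After quantile normalization no TNBS array overlapped the controls and the differences were -0.43, -0.43, -0.65 and -0.36 (SE 0.09, limma adjusted p = 0.00347, 0.00231, 8.90e-05 and 0.0154). As deposited they were 0.20, 0.19, -0.06 and 0.24, called higher on days 2, 5 and 14, so no direction is given. The day 14 call after quantile normalization was lost without day 14 replicate 2 or 3 (adjusted p up to 0.104).

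Nr1i2, the pregnane X receptor, differed from control by -0.36, -0.57, -0.74 and -0.37. Its day 7 arrays, at 5.43, 6.08 and 5.95, lay below the control range of 6.13 to 6.83 (limma, adjusted p = 0.0191), whereas the deposited difference was 0.10. The day 7 call was lost without day 7 replicate 1 (adjusted p = 0.127). Ahr, the aryl hydrocarbon receptor, differed by 0.29, 0.14, 0.18 and 0.22 with no call, and a second Ahr probe set by 0.23, 0.08, 0.16 and 0.11.

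Set side by side, the efflux pumps had lower median differences from control than the phase I or phase II enzymes until day 7. The median over the 4 pumps was -1.04 at day 2, -1.16 at day 5, -0.83 at day 7 and 0.10 at day 14. Over the 17 phase I genes it was -0.04, 0.00, -0.20 and 0.05, and over the 13 phase II genes -0.04, -0.26, -0.24 and 0.18. For all 37 genes the medians were -0.05, -0.29, -0.24 and 0.08, against -0.04 to -0.01 for all probe sets. Phase I held calls both ways at day 5, with Por, Fmo5 and Aldh3a2 higher and Cyp4b1, Cyp4f1, Ephx1 and Ephx2 lower (Ephx1 and Ephx2 after quantile normalization only). The pumps called after quantile normalization, Abcg2 and Abcc3, were all lower. On the deposited scale no pump was called lower, and Abcc2 was called higher on all 4 days, by 0.55, 0.56, 0.53 and 0.54, near the shift of all probe sets. With 4 pumps these medians are descriptions, and the difference between classes was not tested.

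Within each group the median SD of these genes was above that of all probe sets, in controls as well. Most of the 37 genes were brighter than the median of all probe sets, and the comparison was not matched for signal level. The median SD of the 37 genes was 0.238 in controls, 0.388 at day 2, 0.347 at day 5, 0.432 at day 7 and 0.190 at day 14, against 0.165, 0.172, 0.155, 0.147 and 0.136 for all probe sets, and this contrast was not tested. The number of the 37 genes more than 1 below the control mean was 6 and 7 at day 2 replicates 2 and 3, 12 and 6 at day 5 replicates 2 and 3, and 12 at day 7 replicate 1. On the other 7 TNBS arrays it was 0 to 2. The share of all probe sets so far below was 2.05% to 5.36% on the first 5 arrays and 0.464% to 2.30% on the others.

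Of the 4 classes, the pumps had the widest range of array means on days 2, 5 and 7, and the epithelial markers were low in several of the same rats. The mean difference of the 4 pumps from the control mean was 0.07, -1.69 and -1.06 on the day 2 arrays, -0.16, -1.82 and -1.38 at day 5, -1.63, -0.11 and -0.36 at day 7, and 0.25, 0.25 and -0.12 at day 14. For the 21 epithelial markers it was 0.23, -0.61 and -0.50, then 0.15, -0.75 and -0.27, then -1.05, -0.21 and -0.29, then 0.25, 0.19 and 0.31. The 5 arrays with the lowest pump means had marker means of -1.05 to -0.27, and the other 7 TNBS arrays of -0.29 to 0.31. The mean marker level ran from 10.64 to 10.90 on controls, and from 9.71 to 10.55 at day 7 and 10.95 to 11.07 at day 14. Of the 21 markers, 2 were lower at day 2 after quantile normalization (9.52%, against 9.87% of all probe sets), 1 at day 5 (4.76%, against 14.5%, with Cldn7 higher) and 7 at day 7 (33.3%, against 15.9%). On both scales 1, 1 and 3 of the 21 were lower on those days, against 0.522%, 1.09% and 1.07% of all probe sets. Slc26a3, the colonic chloride exchanger, named after its values were seen, was among them on each of the 3 days. Smooth muscle markers were also low on several arrays. The mean of the 10 differed from control by -0.37, 0.18 and -0.92 on the day 2 arrays, -0.71, -1.24 and -0.47 at day 5, -0.11, -0.22 and -0.58 at day 7, and -0.20, -0.66 and -0.40 at day 14. On days 2, 5, 7 and 14, 2, 4, 1 and 2 of the 10 fell on both scales, against 0.522%, 1.09%, 1.07% and 0.135% of all probe sets. The part of the epithelium and of the muscle in the values of the pumps and enzymes was not tested.

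**Figure D4:**
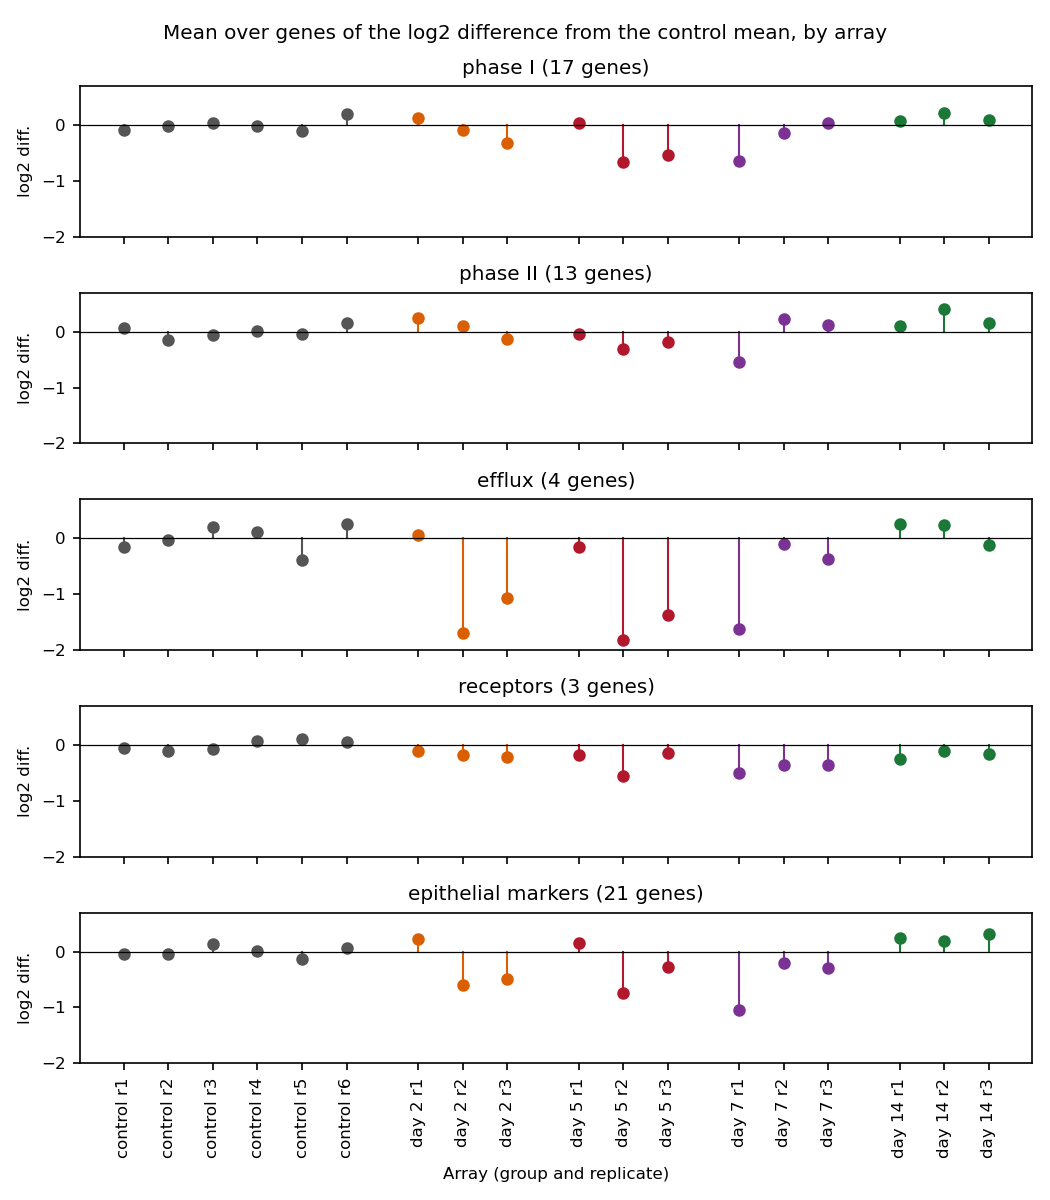
Mean log2 difference from the control mean for each array (horizontal axis, by group and replicate) over the phase I, phase II, efflux and receptor genes and the 21 epithelial markers. The efflux means of day 2 replicates 2 and 3, day 5 replicates 2 and 3 and day 7 replicate 1 lie between -1.06 and -1.82, and all other efflux means lie above -0.40.

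The phase I and phase II means moved less, but they are over 17 and 13 genes against 4 pumps, so the ranges are not on equal terms. The phase I gene Cyp4f1 lay at -4.38 and -5.30 on day 5 replicates 2 and 3, below every pump there. The phase I means were 0.13, -0.08 and -0.32 at day 2, 0.04, -0.66 and -0.53 at day 5, -0.64, -0.15 and 0.04 at day 7, and 0.07, 0.22 and 0.09 at day 14. For phase II they were 0.25, 0.10 and -0.13, then -0.05, -0.32 and -0.18, then -0.54, 0.23 and 0.13, then 0.11, 0.41 and 0.16. The lowest phase II mean was that of day 7 replicate 1, which also had the lowest epithelial mean. Markers of some other cell types were higher at the same times. The mean of the 10 macrophage and monocyte markers was 5.75 to 5.99 on controls, 6.74 to 8.15 at day 2, 7.77 to 8.79 at day 5, 8.39 to 8.50 at day 7 and 5.95 to 6.68 at day 14. Calls higher at days 2, 5 and 7 numbered 8, 9 and 10 of these 10, 5, 6 and 6 of 7 neutrophil markers, 0, 6 and 6 of 7 endothelial markers, and 1, 7 and 8 of 9 fibroblast markers. T cell markers gave 1, 0 and 3 of 8, and no B and plasma cell marker was higher. The higher shares of all probe sets were 9.13%, 12.1% and 12.4%. At day 14, 2 of the 7 neutrophil and 1 of the 8 T cell markers were higher, against 5.61%. On each of days 2, 5 and 7, 2 of 5 mast cell markers were lower after quantile normalization, against 9.87%, 14.5% and 15.9% of all probe sets. On both scales it was 1 of 5 on each day, against 0.522%, 1.09% and 1.07%. The part of these cell types in the results was not tested.

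Consecutive days gave few calls. Between days 2 and 5 none of the 37 genes was called by limma in either direction, against 0.0129% of all probe sets higher and 0% lower, and between days 5 and 7 none was, against 0.0161% and 0%. At an unadjusted p under 0.05 the counts were 5 and 3 of the 37, where all probe sets gave 9.57% and 6.53%. Among the 4 TNBS days, limma's F test called 1 gene, Tpmt (adjusted p = 0.0473), against 2.45% of all probe sets. That call was lost without any of 8 arrays (day 2 replicate 3, day 5 replicates 2 and 3, day 7 replicates 1 and 3 and each of the 3 day 14 arrays), where the count was 0.

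Between days 7 and 14, 1 gene rose (2.70%, against 1.18% of all probe sets) and 1 fell (2.70%, against 2.97%). Tpmt rose by 0.77 ± 0.16 (limma, adjusted p = 0.0115), or 1.71-fold, and all day 14 arrays (9.15 to 9.52) lay above all day 7 arrays (8.14 to 8.71). Without day 7 replicate 1 or day 14 replicate 2 that call was lost (adjusted p up to 0.064). Mgst1 fell by 1.60 (SE 0.40, adjusted p = 0.0353), or 3.03-fold, from 9.06 to 9.80 at day 7 to 7.42 to 8.31 at day 14. The Mgst1 call was lost in 5 of the 6 single omissions, all but day 14 replicate 2 (adjusted p up to 0.130).

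In 12 of the 37 genes (32.4%) every day 14 array lay above every day 7 array, against 14.1% of all probe sets. In 2 of the 37, Cyp1b1 and Mgst1, every day 14 array lay below, against 3276 of the 31042 probe sets. The 12 were Cyp2j4, Cyp3a18, Akr1c15, Aldh3a2, Gsta4, Gstm2, Gstt2, Sult1b1, Tpmt, Ugdh, Abcc3 and Nr1i3. Their differences ran from 0.29 for Nr1i3 to 1.58 for Akr1c15, and only that of Tpmt was called. The median difference over the 37 genes was 0.37, against 0.03 over all probe sets. By class it was 0.36 for phase I, 0.39 for phase II and 1.03 for efflux, and the day 7 values behind it include the low replicate 1. The epithelial markers were 10.95 to 11.07 in the mean at day 14, above every day 7 array, and their part in this difference was not tested.

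**Figure D5:**
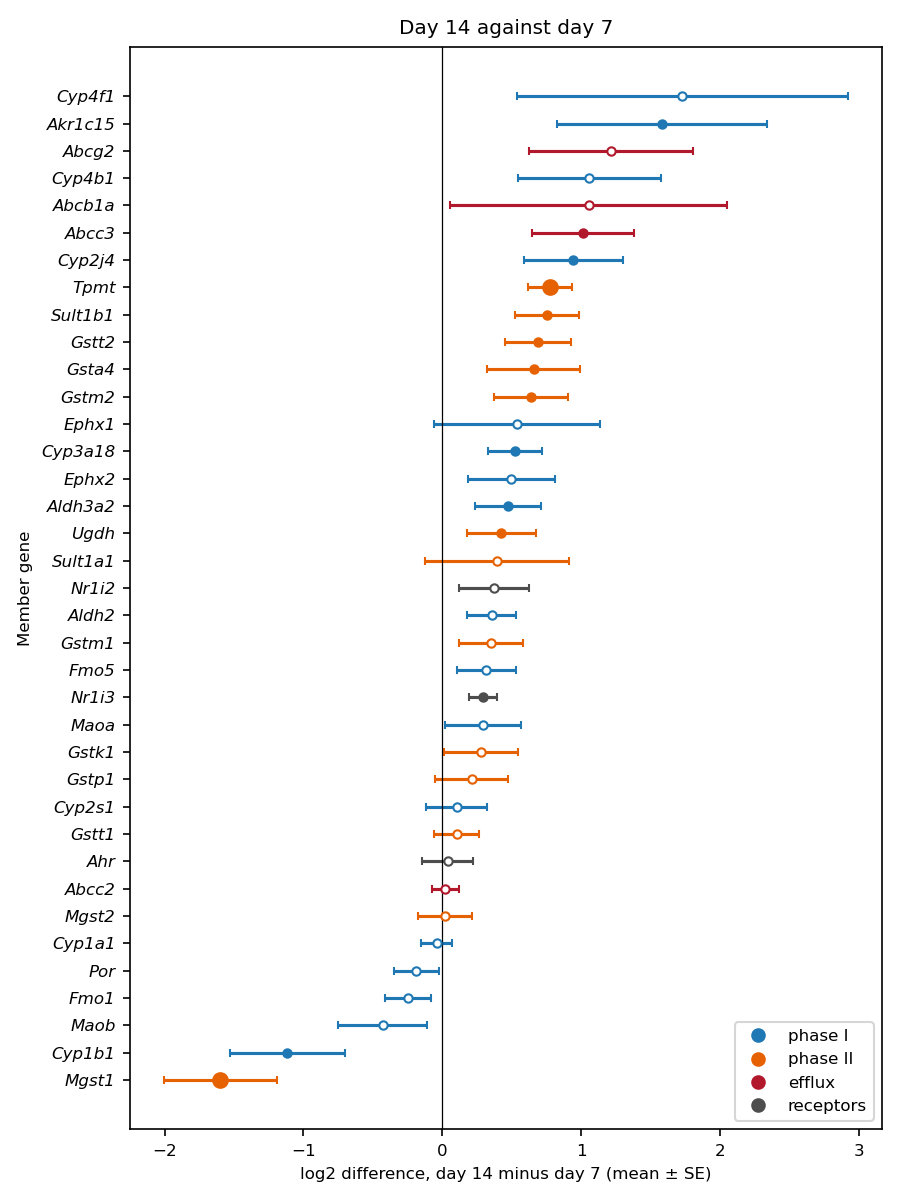
Difference between day 14 and day 7 (log2, horizontal axis) for each of the 37 genes (rows, in order of the difference and coloured by class), as mean ± SE; filled points mark genes whose 3 day 14 and 3 day 7 arrays do not overlap, and large points the called genes, Tpmt (0.77) and Mgst1 (-1.60). Most points lie to the right of 0.

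Other genes of the same pathway, listed for their known roles, were called lower more often than higher in the enzyme lists, as all probe sets were on every day. Of 31 other phase I genes measured, 1 was higher and 8 lower at day 2, 2 and 8 at day 5, 1 and 11 at day 7, and 1 and 3 at day 14. The lower shares were 25.8%, 25.8%, 35.5% and 9.68%, against 9.87%, 14.5%, 15.9% and 6.09% of all probe sets, and the higher shares 3.23%, 6.45%, 3.23% and 3.23%, against 9.13%, 12.1%, 12.4% and 5.61%. Genes that fell on both scales were Cyp3a9, Adh5 and Akr7a3 at day 2 (-0.90, -0.93 and -1.19), Aldh1a1 and Adh5 at day 5 (-1.94 and -1.30), and Cyp3a9 at day 7 (-1.18). These genes were named after their values were seen. Xdh, the xanthine dehydrogenase that makes urate and superoxide, rose by 1.14, 1.65 and 1.87 on days 2, 5 and 7 (limma, adjusted p = 0.00563, 0.000289 and 8.57e-05). By day 14 Xdh had fallen by 1.95 from day 7 (adjusted p = 0.00193) and differed from control by -0.07. Aox1, the aldehyde oxidase, was lower on each day after quantile normalization only, by -0.53, -0.69, -0.60 and -0.70.

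Of 32 other phase II genes, 1 was higher on each day, and 6, 9, 12 and 2 were lower. The lower shares were 18.8%, 28.1%, 37.5% and 6.25%, against the same 9.87%, 14.5%, 15.9% and 6.09% of all probe sets, and the higher share of 3.12% stood below that of all probe sets on each day. The one higher gene was Gss, glutathione synthetase, which rose by 0.94, 0.92, 0.83 and 1.11 (limma, adjusted p = 0.000809, 0.000577, 0.00106 and 0.000334). Sult1c2, another sulfotransferase, was lower after quantile normalization only, by -1.14, -1.14, -1.05 and -0.86. The genes that fell on both scales, also named after their values were seen, were Sult2b1, Papss1 and Nat2 at day 2 (-1.55, -0.97 and -1.34) and Papss1 at day 7 (-0.97). Papss1 makes the activated sulfate that every sulfotransferase uses.

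Of 18 other transporters, 0, 2, 3 and 0 were higher on the 4 days and 2, 3, 2 and 0 lower. The higher shares were 0%, 11.1%, 16.7% and 0%, against 9.13%, 12.1%, 12.4% and 5.61% of all probe sets. The lower shares were 11.1%, 16.7%, 11.1% and 0%, against 9.87%, 14.5%, 15.9% and 6.09%. The transporters that rose, named after their values were seen, were Slco4a1 and Slc15a1 at day 5 (0.99 and 1.21) and Abcc4, Slc22a4 and Slc47a1 at day 7 (0.65, 0.19 and 0.88). Slc47a1, a cation exporter, fell by 0.83 between days 7 and 14 (limma, adjusted p = 0.0498). Slc22a3, an organic cation transporter, was lower on days 5 and 7 after quantile normalization only (-0.71 and -0.60). Of 18 other regulators, 1, 2, 2 and 1 were higher and 3, 2, 3 and 0 lower. These were 5.56%, 11.1%, 11.1% and 5.56% higher and 16.7%, 11.1%, 16.7% and 0% lower, against the same shares of all probe sets. Maff, a partner of the antioxidant regulator Nfe2l2, rose on days 5 and 7 by 0.83 and 1.26 (adjusted p = 0.0236 and 0.0017), and Ppard, named after its values were seen, rose on every day (0.43, 0.54, 0.46 and 0.58). Nr3c1, the glucocorticoid receptor, was lower on days 2, 5 and 7 after quantile normalization only (-0.70, -1.08 and -0.75), and Hnf4a, an epithelial regulator also named after its values were seen, fell at day 7 (-0.96).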

How the data were processed

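Total RNA from full-thickness rat colon was hybridised to Rat Genome 230 2.0 arrays, and the values were normalized by the authors with affyPLM, per the series' design text. The deposited values are on a log2 scale, as judged from their range, and no source used here gives detection calls, a build or a background method. All 18 arrays were quantile-normalized together (limma 3.58.1, R 4.3.3), and 57 control probe sets were then dropped, leaving 31042 tested (20826 with 1 gene symbol, 436 with several, 9780 with none). A model with 1 coefficient per group was fitted with limma over all 31042, and p-values were adjusted by Benjamini-Hochberg over all of them, with a threshold of 0.05. Precision is limited by the number of arrays. The p-values use a spread between rats that is pooled over all groups and moderated by limma over all probe sets. It is therefore not the spread of the compared groups alone. Differences from control also carry the processing and extraction that follow treatment. Same-numbered rats were not treated as paired in the model. Correlations of their deviations from the group means ran from -0.33 to 0.47, with 13 of 30 above 0.1. These values cannot show whether the numbers stand for a pairing.

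The members and lists were chosen with earlier results of these data known. Values on every array are given for the genes with the smallest F-test p of each class (5 of phase I, 4 of phase II, 2 of efflux, 1 receptor). They include Por, Aldh3a2 and Fmo5, called higher at day 5, when most called phase I genes were lower. Cyp4f1, Akr1c15, Ephx1, Sult1a1, Cyp1b1 and Abcb1a were added after their values were seen. Ephx2 and Nr1i2, also called, are not given on every array. Of the other pathway genes, the 2 with the smallest F-test p in each list are named besides those said to be named after their values were seen. In a simulation of the day 5 comparison with known answers, the fit recovered 85% of probe sets changed by 1 on the log2 scale and 97% of those changed by 2, with 10 false calls. The simulated noise had the same SD in every group, and only 200 random probe sets were changed. At day 5 the median SD of the 37 genes was 0.347, against 0.155 for all probe sets. The recovery rates are therefore not those of these genes. Alternatives were the deposited scale, median centring, a filter on low signal, fits of the compared groups alone, a trended robust variance, a replicate block, the mean of all probe sets of a gene, and leaving out each array; calls on both scales were added after the data were seen. Promoters were scanned with Python 3.11.15.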

Additional observations from a re-analysis of the deposited data

Results flagged for a closer look

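Among the 6 control rats, replicate 2 stood far from the others in 2 of the 37 genes tested this way. Cyp2s1 read 3.97 there against at most 3.84 in the others, and Maoa read 9.99 against at most 9.48. Chance marks about 1 in 20 groups by this rule. Tpmt differed between days 7 and 14 by 0.77, and Mgst1 by -1.60, by limma's test of the difference itself.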

How the results depend on the processing

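Of the 33 single calls, 14 changed on the deposited scale (10 lost, 4 reversed). On the deposited values 20, 16, 17 and 22 of the 37 genes were higher on days 2, 5, 7 and 14, and 0, 2, 1 and 0 lower. Of the 31042 probe sets, 25703, 25104, 24872 and 26909 were higher there, and 163, 340, 331 and 42 lower. Nr1i3 turned to 0.20, 0.19 and 0.24 on days 2, 5 and 14 and Nr1i2 to 0.10 on day 7. Counts lower on both scales, chosen after seeing the data, were likewise 0, 2, 1 and 0. Median centring gave 10, 14, 16 and 2 lower, and 0 genes in the F test among TNBS days. No share of all probe sets was taken for the counts of this and the following settings. Leaving out the lowest 50% of probe sets gave 0 lower on day 14. Fitting the compared groups alone gave 5 higher on day 14 and 0 in that F test, as did the trended robust variance (0). With the replicate number as a block, 1, 2, 3 and 0 were lower, 0 rose between days 7 and 14, and the F test called 0. In that fit 16 of the 33 single calls were lost, and whether the numbers pair the rats is not known. The mean of all probe sets of a gene gave 1 higher on day 2. Of the 33 single calls, 13 held without any one array (Por and Gstt2 on all days, Aldh3a2 on days 2 and 14, Nr1i3 on days 2, 5 and 7). Leaving out each array in turn gave 3 to 4 higher and 1 to 6 lower on day 2, 2 to 4 and 1 to 12 on day 5, 2 to 5 and 2 to 7 on day 7, 3 to 4 and 0 to 1 on day 14, 0 to 1 either way between days 7 and 14, and 0 to 2 in the F test. Of the moved counts, higher genes on day 5 were 2 without control replicate 1 or 2 or day 5 replicate 3, and on day 7 2 without control replicate 4 or day 7 replicate 2. The cause of these shifts was not tested.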

Other observations

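Adh1c, the alcohol dehydrogenase that the list names Adh1, was bright on the controls (mean 12.16) and differed from them by -0.35, -0.80, -0.67 and -0.00 on days 2, 5, 7 and 14 (SE 0.42), without a call by limma; its day 5 replicate 2 read 9.74. The probe sets shared by several symbols (Gsta5 and Gsta2, Abcb1a and Abcb1b, and 2 for the Ugt1a family) gave no call after quantile normalization.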
